A study of Mus musculus with 6 samples.

Results

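The myometrial contractile and smooth muscle genes were examined in the mouse uterus on pseudopregnancy day 4.5, written PPD 4.5, after deletion of *Foxo1*. The genes are 34 named members, chosen by symbol for their known part in smooth muscle, with earlier results of these data known. The shares of members given below are therefore descriptions and not a test. All 34 were found among the 23420 genes of the deposited table. RNA-seq was performed on control uteri (*Foxo1f/f*) and on uteri of *PgrCre/+ Foxo1f/f* mice, called *Foxo1d/d*, with 3 libraries of each genotype and RNA of 2 mice pooled in each library. All mice were 8 weeks old, on C57BL/6J, and mated with vasectomized males, so that no embryo was present. The paper's methods give the feed as an irradiated rodent diet free of soy protein. Both genotypes carried the floxed *Foxo1* alleles, and the *Foxo1d/d* mice alone carried Cre recombinase at the *Pgr* locus, which deletes *Foxo1* only in cells that have expressed PGR. An effect of the Cre allele itself and loss of *Foxo1* cannot be told apart in this design. Whole uterine RNA holds myometrium, stroma, epithelium, vessels and blood cells together, so fewer cells of a type and less RNA per cell cannot be told apart.

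The values used here are the authors' mean raw counts of each gene per genotype. A library held on average 26125014 counts on genes in *Foxo1f/f* uteri and 27257963 in *Foxo1d/d* uteri. Since single libraries were not analysed here, no spread between pools and no p-value is given, and no difference below has a replicate check. Each difference is given as a log2 ratio, with *Foxo1d/d* divided by *Foxo1f/f*, taken after adding 1 to both mean counts and scaling each to the total of its genotype. The 95% interval beside it is a Wilson interval from the summed counts of 3 libraries and covers counting error only. Levels are mean counts scaled to a total of 1000000 counts (CPM) and divided by the exon length in kb, the scale on which different genes are compared.

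Smooth muscle contracts when myosin thick filaments pull on actin thin filaments that are anchored in dense bodies and in adhesion plaques of the membrane. Calcium entering the cytoplasm activates myosin light chain kinase, which phosphorylates the regulatory light chain, and myosin phosphatase reverses this step. In the uterus the outer layers of smooth muscle form the myometrium, which responds to oxytocin and prostaglandins, and many of its contractile genes are transcribed by serum response factor (SRF) with its cofactor myocardin, through a DNA element called the CArG box.

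The targeted gene was read first, at chr3:52268336-52353221 on the plus strand of GRCm38 (Entrez gene 56458). *Foxo1* averaged 3941 counts in *Foxo1f/f* uteri and 1456 in *Foxo1d/d* uteri, or 17.4 and 6.16 CPM per kb. Its log2 ratio was -1.50 (interval -1.55 to -1.45), in the direction of the labels.

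All 34 members averaged 10 counts or more over the genotypes, the minimum used, and so did 15696 genes of the whole table. In *Foxo1d/d* uteri 32 of the 34 members had a lower scaled count, against 44.9% of all 15696 genes, and only *Pdlim3* and *Actn1* were higher. The median log2 ratio of the members was -0.16, while that of all genes was 0.025. These signs were the same for each member under every scaling tried. The differences were small. By more than 1.5-fold, 2 members were lower, beside 3.51% of all genes, and 0 were higher, beside 5.43%. Past a smaller size of 0.32 on the log2 scale, 7 members were lower, beside 9.00% of all genes, and 0 were higher, beside 12.5%. These shares of all genes, below 0 and past each size, are also those to set beside the counts of groups and lists below. The counting interval lay below 0 for 26 members, beside 27.3% of all genes, included 0 for 6 members, beside 36.0%, and lay above 0 for 2, beside 36.7%. Scaled to the median gene, these numbers were 29, 3 and 2, beside 31.6%, 36.3% and 32.1%. Deep counting of these abundant genes makes such intervals narrow, and they say nothing of the variation between pools.

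**Figure D1:**
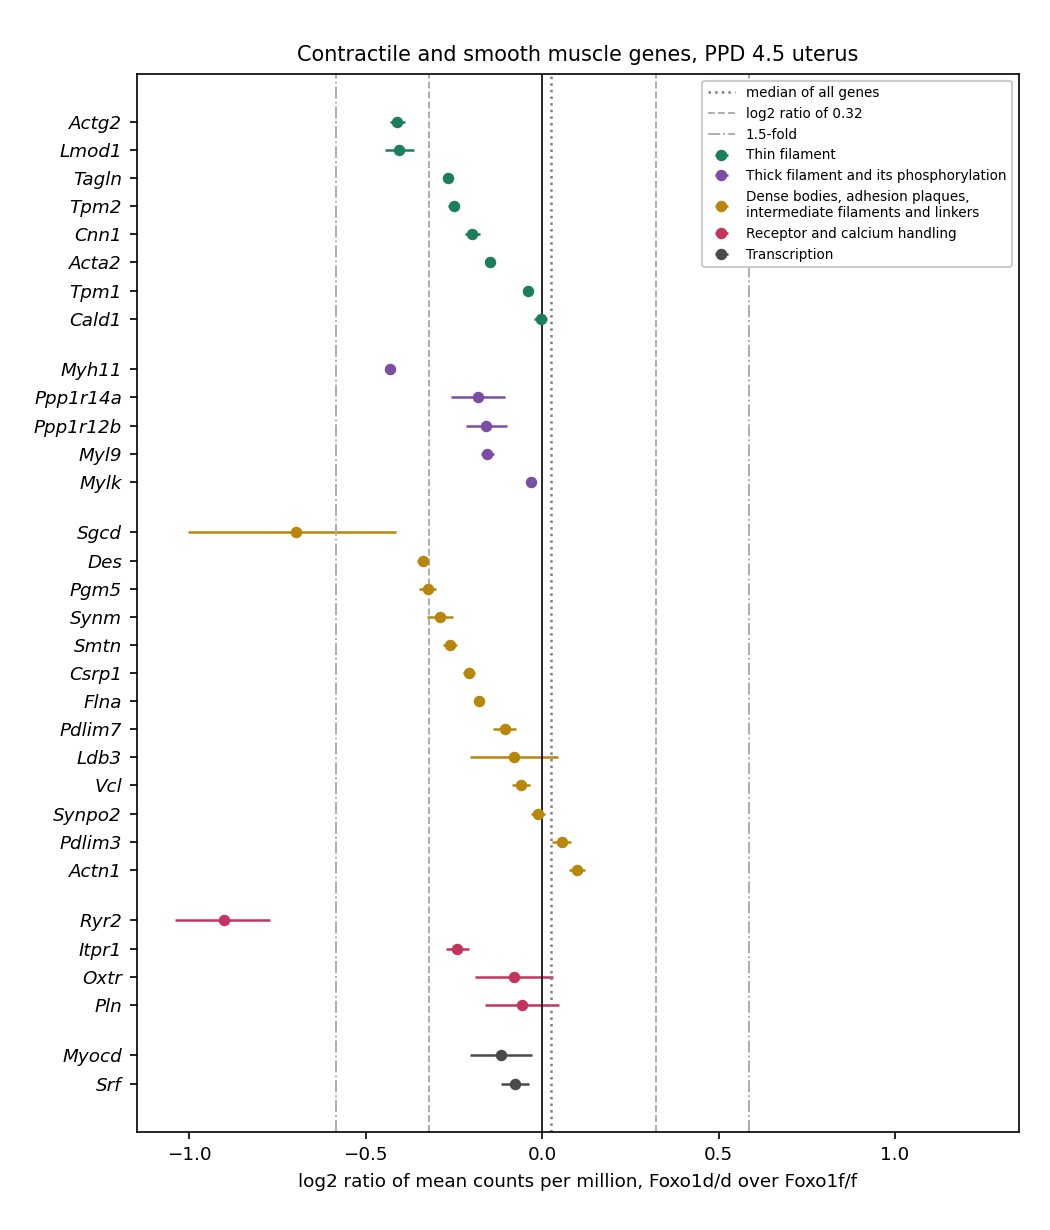
Log2 ratios of 32 of the 34 members, *Foxo1d/d* over *Foxo1f/f*, grouped by role, with points for the ratio of scaled mean counts, bars for the 95% counting interval, dashed and dash-dotted lines at a log2 ratio of 0.32 and at 1.5-fold in either direction, and a dotted line at the median of all genes. All ratios shown but those of *Pdlim3* and *Actn1* lie below 0, and *Ryr2* at -0.90 and *Sgcd* at -0.70 lie beyond 1.5-fold.

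Together the members held 1.85% of all counts in *Foxo1f/f* uteri and 1.62% in *Foxo1d/d* uteri, a ratio of 0.876. *Myh11* and *Flna* had the most counts of the members, and without these the ratio of the sums was 0.898. The lower total thus did not rest on these members alone.

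Thin filament genes are *Acta2*, *Actg2*, *Tpm1*, *Tpm2*, *Cald1*, *Cnn1*, *Tagln* and *Lmod1*. All 8 had ratios below 0, beside 44.9% of all genes, with a median of -0.22. By more than 0.32 on the log2 scale 2 were lower, beside 9.00% of all genes. Their summed level was 6055 CPM in *Foxo1f/f* uteri and 5353 in *Foxo1d/d* uteri. The actins differed in size of change. *Acta2*, smooth muscle alpha-actin, which vessels and myometrium share, averaged 34924 and 32886 counts in *Foxo1f/f* and *Foxo1d/d* uteri, or 609 and 549 CPM per kb, with a log2 ratio of -0.15 (interval -0.16 to -0.14). *Actg2*, the gamma-actin typical of visceral smooth muscle, averaged 13602 and 10677 counts, or 334 and 252 CPM per kb, with a log2 ratio of -0.41 (interval -0.43 to -0.39). This gene (Entrez gene 11468) lies at chr6:83512905-83536265 on the minus strand of GRCm38, with *Acta2* (Entrez gene 11475) on another chromosome, at chr19:34241090-34255590. By count, not per length, *Actg2* was thus 0.390 of *Acta2* in controls and 0.325 in *Foxo1d/d* uteri, and the interval of *Actg2* lay wholly below that of *Acta2*.

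*Lmod1*, leiomodin 1, an actin filament nucleator of smooth muscle, averaged 3554 counts in *Foxo1f/f* uteri and 2799.7 in *Foxo1d/d* uteri. Its level was 34.5 and 26.0 CPM per kb and its log2 ratio -0.41 (interval -0.45 to -0.36). *Tagln*, transgelin, an actin-binding protein, averaged 29092 and 25212 counts, or 560.1 and 465 CPM per kb, with a log2 ratio of -0.27 (interval -0.28 to -0.25). Both genes encode proteins that bind filamentous actin, and both were lower. Transcripts of *Tagln* share 36.3% of their 90-base windows, the length of the trimmed reads, with genes on the opposite strand, and whether counting used strand is not given in the sources used here. Of these, *Gm48529* overlaps 62.4% of the exon length of *Tagln* and is not in the deposited table under that name. *Pcsk7*, which is in it, overlaps 5.43%. Among the regulators of the actin filament, the tropomyosins were unequal: *Tpm2* had a log2 ratio of -0.25 and *Tpm1* of -0.040, and *Cnn1*, calponin, had -0.20.

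*Cald1*, caldesmon, which holds back actin and myosin interaction, averaged 15187 and 15800 counts in *Foxo1f/f* and *Foxo1d/d* uteri. Scaled to depth, its level was 48.3 and 48.1 CPM per kb, with a log2 ratio of -0.0042 (interval -0.023 to 0.014), so its interval included 0. Scaled to the median gene, the log2 ratio was -0.029 with an interval wholly below 0 (-0.047 to -0.010), so whether *Cald1* differed depends on the scaling, and either way by a small amount. Among the members with a promoter window, *Cald1* was the only one that held the forkhead core TGTTTAC, the sequence FOXO proteins recognize, on either strand. The stretch around it, at chr6:34598419-34598505 of GRCm38.p6 on the plus strand, is shown because *Foxo1* is the deleted gene. The capitals mark the core as it reads on the opposite strand, from base -45 to base -39 relative to the RefSeq start.

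*Cald1*: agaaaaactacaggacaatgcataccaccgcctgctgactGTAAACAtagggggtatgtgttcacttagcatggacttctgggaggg

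The forkhead core stood in the promoter windows of 4.05% of 27025 genes, each running from 250 bases before to 50 after a RefSeq start, of 3.07% of the 11426 such genes past the minimum count, and of 1 of the 28 members that had such a window, or 3.57%. A match describes the letters in the window and not a bound site.

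Thick filament genes and those that set its phosphorylation include *Myh11*, *Myl9*, *Mylk*, *Ppp1r12b* and *Ppp1r14a*. All 7 genes of this group had ratios below 0, with a median of -0.16, and their summed level was 4544 CPM in *Foxo1f/f* uteri and 3825 in *Foxo1d/d* uteri. Most of that gap came from *Myh11*, the smooth muscle myosin heavy chain. Its mean count was 60677 in *Foxo1f/f* uteri and 46984 in *Foxo1d/d* uteri, or 306 and 227 CPM per kb, and its log2 ratio was -0.43 (interval -0.44 to -0.42). The gene (Entrez gene 17880) lies at chr16:14194535-14291372 on the minus strand of GRCm38. It was the single member of this group lower by more than 0.32 on the log2 scale. *Myl9*, the regulatory light chain that is phosphorylated when the muscle contracts, averaged 16757 and 15693 counts, or 552 and 495 CPM per kb, with a log2 ratio of -0.16 (interval -0.17 to -0.14). A CArG box lies upstream of *Myl9*, in capitals from base -161 to base -152 relative to the start, at chr2:156775263-156775352 of GRCm38.p6 on the plus strand.

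*Myl9*: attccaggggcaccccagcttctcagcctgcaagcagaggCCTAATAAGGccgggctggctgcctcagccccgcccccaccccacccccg

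The kinase showed little difference. *Mylk*, myosin light chain kinase, averaged 30989 and 31640 counts in *Foxo1f/f* and *Foxo1d/d* uteri, or 105 and 103 CPM per kb, with a log2 ratio of -0.031 (interval -0.044 to -0.018). By count, *Myh11* was 1.96 times *Mylk* in controls and 1.48 times in *Foxo1d/d* uteri. On the side of the phosphatase, *Ppp1r12b*, a myosin-targeting subunit, had a log2 ratio of -0.16, and *Ppp1r14a*, its inhibitor CPI-17, had -0.18. *Mylk* and these phosphatase genes were thus closer to 0 than the heavy chain.

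Dense bodies, adhesion plaques, intermediate filaments and linkers were represented by *Des*, *Synm*, *Synpo2*, *Smtn*, *Flna*, *Actn1*, *Vcl*, *Pgm5*, *Ldb3*, *Pdlim3*, *Pdlim7*, *Csrp1* and *Sgcd*. Of these 13 genes, 11 had ratios below 0 and 2 above, with a median of -0.18. Their summed level was 7482 CPM in *Foxo1f/f* uteri and 6658 in *Foxo1d/d* uteri. *Sgcd*, delta-sarcoglycan, part of the complex that ties the cytoskeleton to the matrix, was scarce, with mean counts of 78.3 and 50, or 0.363 and 0.222 CPM per kb. Its log2 ratio of -0.70 had a wide interval (-1.004 to -0.41) that holds values on either side of 1.5-fold. *Des*, desmin, the intermediate filament of muscle, averaged 20767 and 17140 counts, or 212 and 168 CPM per kb, with a log2 ratio of -0.34 (interval -0.36 to -0.32). *Synm*, which assembles with desmin, had a log2 ratio of -0.29, and *Pgm5*, aciculin, a plaque protein, had -0.32, so the intermediate filament pair and this plaque gene were lower by like amounts.

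*Flna*, filamin A, which cross-links actin in many cell types, had the most counts of all members. Its mean count was 78897 in *Foxo1f/f* uteri and 72642 in *Foxo1d/d* uteri, or 321 and 284 CPM per kb, with a log2 ratio of -0.18 (interval -0.19 to -0.17). *Csrp1*, a LIM protein of the actin cytoskeleton, averaged 22500.3 and 20328 counts, or 440.3 and 381 CPM per kb, with a log2 ratio of -0.21 (interval -0.22 to -0.19). *Smtn*, smoothelin, had a log2 ratio of -0.26, and *Pdlim7*, a PDZ and LIM protein, had -0.11. These linkers were thus lower by smaller amounts than *Des*.

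At the other end of this group, 2 genes were higher in *Foxo1d/d* uteri. *Actn1*, alpha-actinin 1, which anchors actin in dense bodies and in the adhesions of non-muscle cells, averaged 10759 and 12017 counts, or 74.4 and 79.7 CPM per kb, with a log2 ratio of 0.098 (interval 0.077 to 0.12). *Pdlim3*, a partner of alpha-actinin, averaged 7379 and 8000 counts, or 54.9 and 57.0 CPM per kb, with a log2 ratio of 0.055 (interval 0.029 to 0.082). Near them lay *Synpo2*, myopodin, with mean counts of 12679 and 13122, or 37.1 and 36.8 CPM per kb, and a log2 ratio of -0.012 (interval -0.032 to 0.0086). Scaled to the median gene, *Synpo2* was at -0.036 (interval -0.057 to -0.016), so whether its interval included 0 depends on the scaling. The pair above 0 was higher by small amounts.

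*Vcl*, vinculin, and *Ldb3*, a PDZ and LIM protein that binds alpha-actinin, had log2 ratios of -0.060 and -0.080. The windows of both genes hold a CArG box, shown in capitals within its surroundings. For *Vcl* the box spans bases -227 to -218 relative to the start, at chr14:20929148-20929220 on the plus strand. For *Ldb3* it spans bases -35 to -26 from one RefSeq start and -109 to -100 from another, at chr14:34588667-34588756 on the minus strand, both on GRCm38.p6.

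*Vcl*: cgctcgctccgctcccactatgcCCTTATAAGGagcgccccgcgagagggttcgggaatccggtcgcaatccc

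*Ldb3*: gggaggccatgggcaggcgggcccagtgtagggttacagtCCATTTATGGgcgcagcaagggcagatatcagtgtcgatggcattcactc

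*Vcl* overlaps *Ap3m1* on the opposite strand, over 25.5% of its exon length, so their reads may have been counted together or set aside. *Ap3m1* had mean counts of 1599 in *Foxo1f/f* uteri and 1848 in *Foxo1d/d* uteri. Each of these values therefore carries an uncertainty that the interval does not hold.

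The receptor and calcium handling group holds *Oxtr*, *Itpr1*, *Ryr2* and *Pln*. All 4 had ratios below 0, with a median of -0.16, and their summed level was 245 CPM in *Foxo1f/f* uteri and 206 in *Foxo1d/d* uteri. *Ryr2*, a ryanodine receptor that releases calcium from the sarcoplasmic reticulum, had the lowest ratio of all members. Its mean count was 408 in *Foxo1f/f* uteri and 227 in *Foxo1d/d* uteri, or 0.542 and 0.289 CPM per kb, with a log2 ratio of -0.90 (interval -1.04 to -0.77). Among all genes past the minimum count, 1.71% had a lower ratio than *Ryr2*, a long gene (Entrez gene 20191) at chr13:11553102-12106945 on the minus strand of GRCm38. *Itpr1*, the inositol trisphosphate receptor that releases calcium after oxytocin or prostaglandin signals, averaged 5068 and 4475 counts and a log2 ratio of -0.24.

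*Oxtr*, the oxytocin receptor, had mean counts of 439 in *Foxo1f/f* uteri and 433 in *Foxo1d/d* uteri, or 3.51 and 3.32 CPM per kb. Its log2 ratio of -0.080 (interval -0.19 to 0.031) was not distinguishable from 0 at this depth. *Pln*, phospholamban, which restrains the calcium pump of the sarcoplasmic reticulum, averaged 484 and 486 counts and a log2 ratio of -0.056 (interval -0.16 to 0.049). Transcripts of *Pln* share 57.8% of their 90-base windows with genes on the opposite strand. Of these, *Gm47644* overlaps 59.6% of the exon length of *Pln* and is not in the deposited table under that name. *Cep85l*, which is in it, overlaps 5.11%. The 2 calcium release channels were therefore lower, while the receptor and the pump inhibitor showed no difference beyond counting error.

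*Srf* and *Myocd* stand for transcription. *Srf* averaged 3350 and 3313 counts in *Foxo1f/f* and *Foxo1d/d* uteri, or 44.3 and 42.0 CPM per kb, with a log2 ratio of -0.077 (interval -0.12 to -0.037). *Myocd*, myocardin, averaged 713 and 686 counts, or 4.25 and 3.92 CPM per kb, with a log2 ratio of -0.12 (interval -0.20 to -0.029). The mRNA levels of this pair thus differed by much less than that of *Myh11*. The promoter of *Srf* holds 2 CArG boxes close together, from base -82 to -73 and from base -62 to -53, at chr17:46556175-46556284 of GRCm38.p6 on the minus strand.

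*Srf*: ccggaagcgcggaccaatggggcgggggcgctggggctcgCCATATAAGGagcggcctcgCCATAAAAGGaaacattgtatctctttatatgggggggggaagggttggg

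A CArG box stood in the window of 4 of the 28 members with a window, *Myl9*, *Vcl*, *Ldb3* and *Srf*, or 14.3%, beside 1.81% of 27025 genes and 1.65% of the 11426 such genes past the minimum count. Here a box is CC, then 6 bases that are each A or T, then GG, and near matches were not counted. The window of *Acta2* holds ccctatatgg and ccttgtttgg, each with a single C or G among those bases. The 4 members with a box had log2 ratios from -0.16 to -0.060, with a median of -0.079. The 24 members with a window and no box of this exact form, *Acta2* among them, had a median of -0.17. Among the 28 members with a window, those with a box of this exact form were thus not the ones with the lowest ratios. No promoter window was used for the other 6 members, *Tagln*, *Actg2*, *Itpr1*, *Myh11* and *Myocd* among them.

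**Figure D2:**
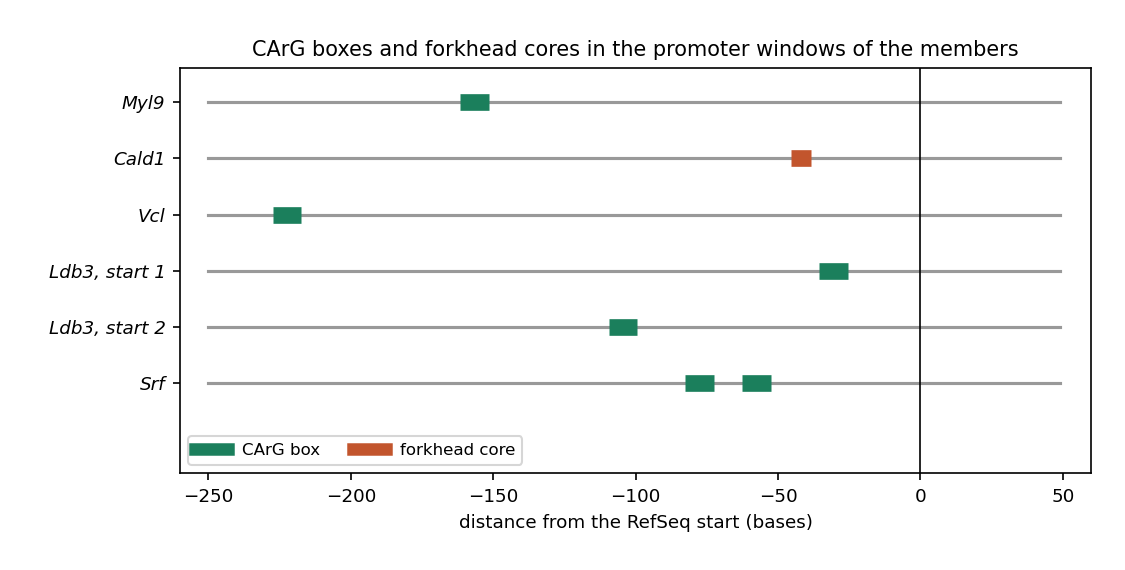
Positions of CArG boxes (green) and of the forkhead core (orange) in the promoter windows of members that held one, in bases from the RefSeq start, with gray lines for the window. The boxes lie upstream of the start in *Myl9*, *Vcl*, *Ldb3*, which has 2 overlapping windows, and *Srf*, and the core lies upstream of *Cald1*.

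By level per kb of exon, the members spanned a wide range. In *Foxo1f/f* uteri *Acta2* was highest at 609 CPM per kb, followed by *Tagln*, *Myl9*, *Csrp1*, *Actg2* and *Flna*, and *Ryr2* and *Sgcd* were lowest. With the length of the longest transcript in place of the union of exons, *Tagln* at 698 came before *Acta2* at 657. *Tpm1*, at 168 by the union of exons, was then at 378 and took the place of *Flna* at 357 among the 6 highest. The order thus rests on the length chosen, and not only for close neighbors. By the union of exons *Tpm1* was well below *Flna*, which was at 321. Changes in *Foxo1d/d* uteri were small beside these differences between genes.

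**Figure D3:**
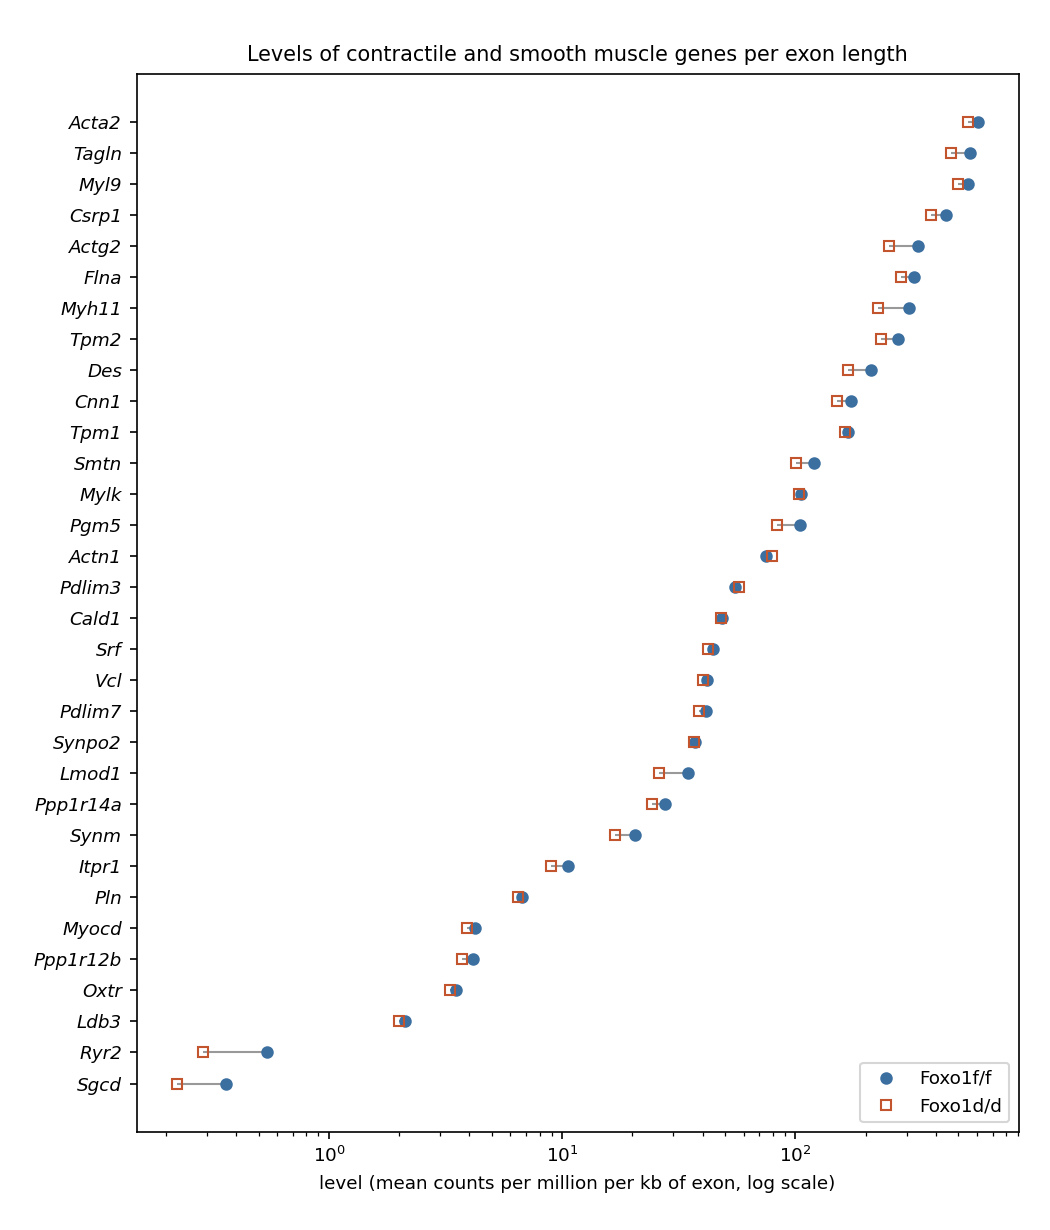
Levels of 32 of the 34 members in mean CPM per kb of exon, on a log axis, with blue circles for *Foxo1f/f* and open orange squares for *Foxo1d/d* uteri, ordered by the level in controls. *Acta2* at 609 and 549 is highest, and *Sgcd* at 0.363 and 0.222 is lowest.

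Abundance and gene length bear on how a ratio is read, since ratios of all genes moved with both. Of the 280 genes with 10000 counts or more on average, 58.6% had a ratio below 0, and of the 16 members among them 15 did. In that class the median log2 ratio was -0.021 over all genes and -0.19 over the members. Of the 6823 genes with mean counts from 1000 to 10000, 46.4% were below 0, and 10 of 11 members were. Of the 2148 genes that span more than 100 kb, 58.1% were below 0, and all 10 members of that span were, *Ryr2* and *Sgcd* among them. Of the 4040 genes under 10 kb, 36.4% were below 0, and all 7 such members were. Members were thus lower more often than all genes in each of these classes of abundance and span.

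**Figure D4:**
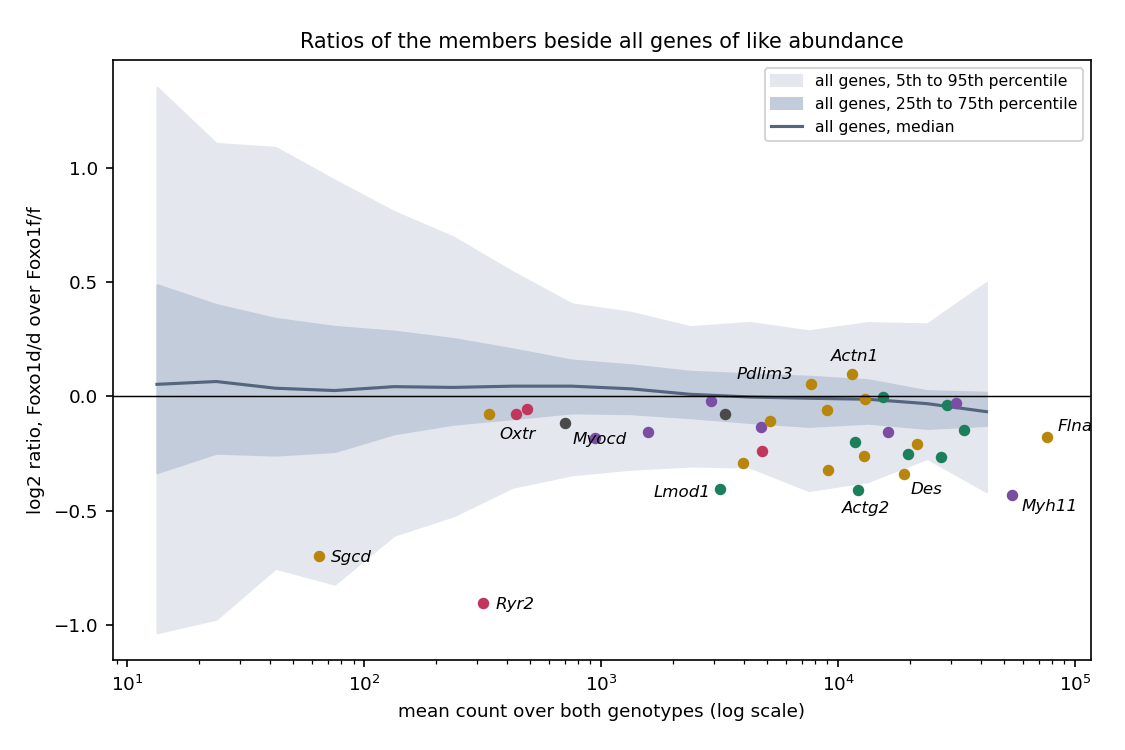
Log2 ratio of each member against its mean count over both genotypes (log axis), colored by role group (green thin filament, purple thick filament, gold dense bodies and linkers, red receptor and calcium handling, gray transcription), over bands for the percentiles of all genes of like abundance. Most members lie under the median line of all genes, and *Ryr2* at -0.90 lies farthest below the bands.

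Related genes outside the members gave a contrast within the contractile machinery. Other contractile genes, such as the non-muscle actins and myosins and the calmodulins, had 10 of 23 ratios below 0 and 13 above. Their median was 0.021, and 0 were past 1.5-fold in either direction. Below 0 were both non-muscle myosin heavy chains of the list, *Myh9* (log2 ratio -0.092) and *Myh10* (-0.16). Above 0 were its non-muscle actins, *Actb* and *Actg1* (0.11). Scaled to the median gene, the median of this list was -0.0037, so its sign depends on the scaling. Here and below, the most abundant gene of a list is the one with the most counts, whatever its length. In this list it was *Actb*, which averaged 28927 and 32069 counts with a log2 ratio of 0.088. For pairs picked after the values were seen, *Actg2* was by count 1.15 times the non-muscle *Actg1* in controls and 0.803 times in *Foxo1d/d* uteri, and *Myh11* was 7.42 and 6.17 times *Myh10*. In these pairs the smooth muscle form was lower relative to its widely expressed counterpart. Other smooth muscle genes, the caveolar, sarcoglycan and adhesion genes outside the members, had 30 of 40 ratios below 0 with a median of -0.14. Among them *Itga8*, an integrin subunit, was lower by more than 1.5-fold (log2 ratio -0.80, mean counts 1231 and 740). *Prune2* (log2 ratio -0.58) passed 1.5-fold only when scaled to the upper quartile or to a median of genes, and the most abundant, *Ptrf*, had a log2 ratio of -0.023.

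Further calcium handling genes had 16 of 23 ratios below 0, with a median of -0.14. *Kcnma1*, the large-conductance calcium-activated potassium channel that quiets smooth muscle, averaged 736 and 490 counts and a log2 ratio of -0.65 (interval -0.74 to -0.55), the only one of the list past 1.5-fold. The most abundant of the list, the calcium pump gene *Atp2a2*, had a log2 ratio of 0.041. *Ryr3*, named here after its values were seen, had the highest level of the ryanodine receptors in controls, at 5.22 CPM per kb, and a log2 ratio of -0.57, which passed 1.5-fold when scaled to the median gene. *Kcnma1* and *Ryr3* were thus lower, as *Ryr2* was, and *Atp2a2* was not. The other calcium pump genes of the list, *Atp2b4* (-0.28) and *Atp2b1* (-0.087), were lower.

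Receptors that contract or relax the uterus, with their coupling proteins, had 15 of 22 ratios below 0 among genes past the minimum count, beside 44.9% of all genes. More than 1.5-fold lower were 5 of them, including those named next, beside 3.51% of all genes, and 1 was higher, beside 5.43%. *Ptger2*, a relaxant prostaglandin E2 receptor, averaged 1821 and 769 counts and a log2 ratio of -1.30 (interval -1.37 to -1.23). *Pde5a*, the phosphodiesterase that degrades cGMP, had -0.82, *Agtr1a*, an angiotensin receptor, had -0.76, and *Rgs2*, an inhibitor of Gq signaling and the most abundant of the list, had -0.63. *Rxfp1*, the relaxin receptor, averaged 5732 and 9008 counts and a log2 ratio of 0.59 (interval 0.56 to 0.62), which was within 1.5-fold when scaled to the upper quartile or to the median gene. Lower receptor genes thus included both contractile and relaxant ones, and stroma and epithelium also express several of them. Among cofactors of SRF and other muscle transcription genes, 14 of 18 ratios were below 0 with a median of -0.10 and 0 past 1.5-fold, and the most abundant, *Yap1*, had a log2 ratio of -0.079.

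**Figure D5:**
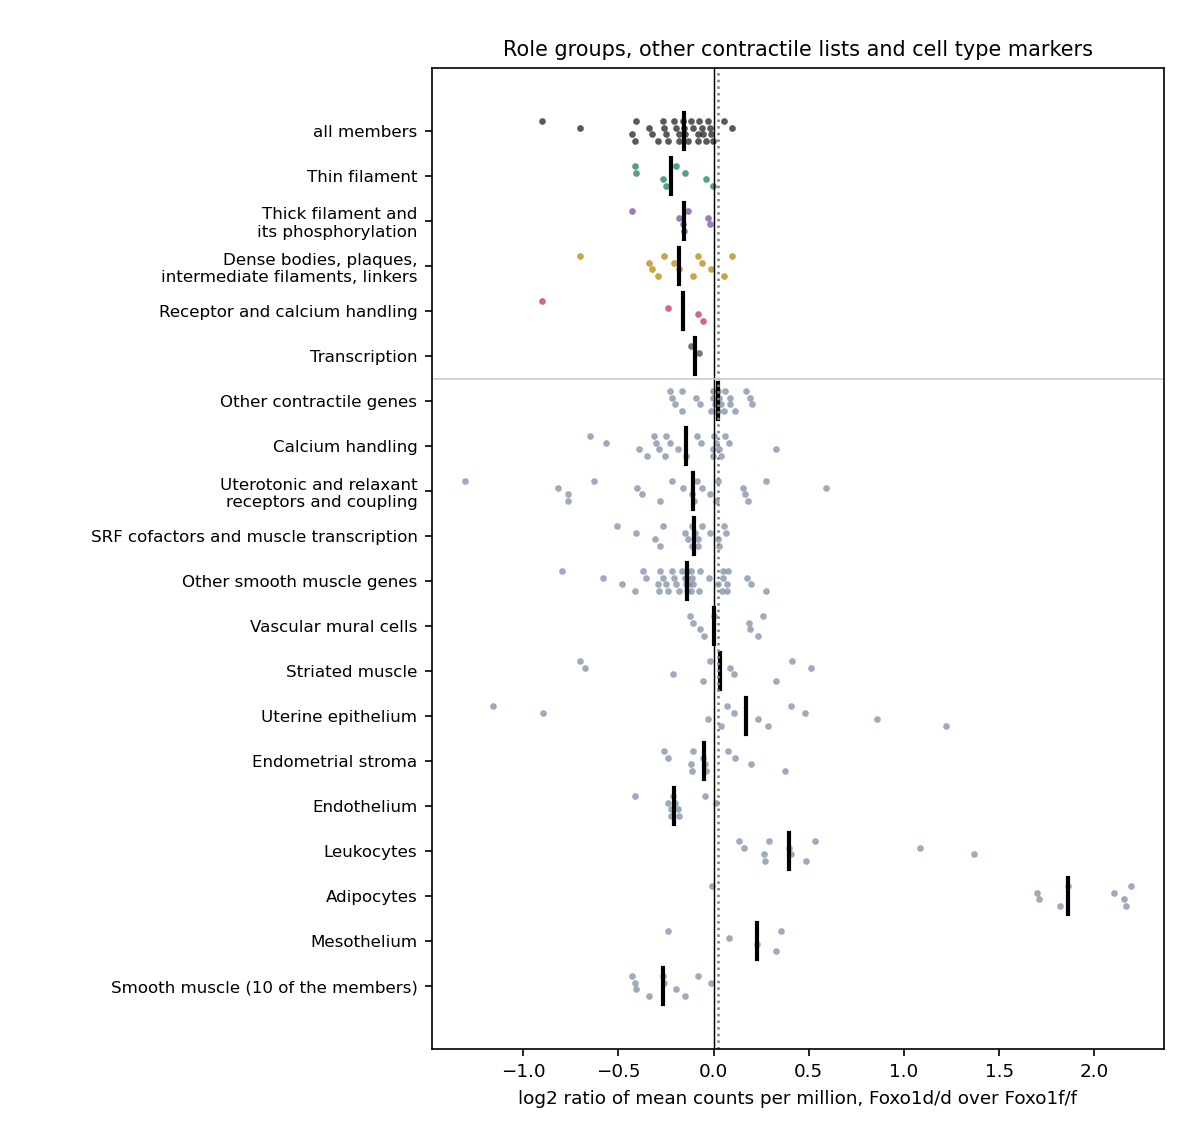
Log2 ratios, *Foxo1d/d* over *Foxo1f/f*, of genes past the minimum count in each role group of the members (above the gray line) and in other contractile lists and cell type markers (below it), with a point per gene, a black bar at each median and a dotted line at the median of all genes. Medians of the role groups lie below 0, other contractile genes and mural cell markers lie near 0, and adipocyte markers lie highest at 1.86.

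Markers of other cell types in the uterus moved by different amounts, and their part in the ratios of the members was not tested. Smooth muscle markers, all 10 of them members, summed to 7726 CPM in *Foxo1f/f* uteri and 6327 in *Foxo1d/d* uteri, with *Myh11* the most abundant and a median log2 ratio of -0.26. Vascular mural cell markers, which mark pericytes and vessel muscle, summed to 949 and 952 CPM, and *Pdgfrb*, the most abundant, had a log2 ratio of -0.050. Of their ratios 4 of 9 were below 0, beside 44.9% of all genes, with a median of 0.0050. Under the scaling to the median gene that median was -0.020, so it had no fixed sign. Striated muscle markers summed to 155 and 157 CPM, with 5 of 10 ratios below 0, beside 44.9% of all genes, and a median of 0.036. *Acta1* was the most abundant of them, the fast myosin genes *Myh1* and *Myh2* were under a mean count of 1 in both genotypes and *Myh4* was at 0. In that list *Actc1* (mean counts 111 and 71, log2 ratio -0.70) and *Ckm* (67.3 and 43.7, log2 ratio -0.67) were lower by more than 1.5-fold, at low counts, and *Tnnc2* (0.51), *Casq1* (0.41) and *Tnnt1* (0.33) were higher by more than 0.32 on the log2 scale.

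Endothelial markers had 9 of 10 ratios below 0 and a median of -0.21, close to that of the members. Their sum was 2136 CPM in controls and 1848 in *Foxo1d/d* uteri, with *Pecam1* the most abundant. Stromal markers summed to 15391 and 15349, with *Col3a1* the most abundant, 8 of 12 ratios below 0 and a median of -0.052. Epithelial markers summed to 921 and 1038, with *Cdh1* the most abundant and 9 of 12 ratios above 0. Of these, *Krt19* (1.22) and *Elf3* (0.86) were higher by more than 1.5-fold, and *Spint1* (-0.90) was among the lower ones. All 11 leukocyte markers had ratios above 0, with a sum of 660.2 and 824 CPM, *Lyz2* the most abundant, and the T cell genes *Cd3d* (1.37) and *Cd3e* (1.09) past 1.5-fold. Mesothelial markers, of the outer surface of the horn, summed to 210.1 and 194, with 4 of 5 ratios above 0 and *Wt1* the most abundant. Adipocyte markers differed most. Their sum was 53.2 CPM in controls and 138 in *Foxo1d/d* uteri, 8 of 9 were higher by more than 1.5-fold, *Car3* was the most abundant (mean counts 296 and 1381, log2 ratio 2.16), and *Cidec* (2.19), *Retn* (2.16), *Plin1* (2.10), *Cfd* (1.86) and *Adipoq* (1.82) were also among them. None of the marker lists of the other cell types had a gene at 0 in both genotypes except the striated one. Lower ratios were thus found in smooth muscle and endothelial markers, higher ratios in leukocyte and adipocyte markers, and sums almost equal in stroma and mural cells.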

How the data were processed

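RNA from uteri at PPD 4.5 was sequenced by the authors from 3 pools of 2 mice per genotype. Trimmed paired-end reads were mapped by the authors with STAR, duplicates were taken out with Picard, HTSeq gave counts on RefSeq genes, and edgeR was used by the authors to compare genotypes. Versions are not given in the sources used here. The paper's methods name mm10 as the genome, while the submitters' processing notes list mm9, and the deposited table has no coordinates. The authors deposited, for every gene, the raw count averaged within each genotype, and 100% of these averages were whole after multiplication by 3 (tolerance 0.001). The deposited columns of the authors' own comparison hold a fold change, an average log2 CPM, a p-value and an FDR, and were not used. No test was run, since counts of single libraries were not analysed here.

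Computed here were log2 ratios of mean counts (pseudocount 1, scaled to totals of 78375043 and 81773890 summed counts), over genes that averaged 10 counts or more, and 95% Wilson intervals, tested on simulated data. The simulated counts held counting error alone, so they do not test the intervals against variation between pools. Counts were summed over the 3 libraries of a genotype, so the intervals cover counting error only. Any PCR copies left after Picard would not be independent molecules, and the intervals make no allowance for them. Exon lengths and positions came from GENCODE M21 (GRCm38), in place of the planned RefSeq gene models, and promoter windows from RefSeq on GRCm38.p6. The members and lists were chosen with earlier results of these data known. Except for a few genes that fall under these rules, count in their groups and lists and are not reported here, named in full were the 6 lowest and 6 highest ratios, the 6 highest levels per kb, *Oxtr*, *Myocd*, *Srf* and *Foxo1*, and of each other list up to 6 genes past 1.5-fold and the most abundant. *Itpr1*, *Pln*, *Ap3m1*, *Prune2*, *Atp2b1*, *Atp2b4*, *Myh9*, *Myh10*, *Actg1*, other genes that overlap *Tagln* and *Pln*, and 3 higher striated markers were added after the values were seen. So were pairs of genes and intervals under other scalings. Alternatives were a pseudocount of 0.1, other scalings, count minimums of 1 and 50, smaller and larger folds, and the longest transcript as gene length. Python 3.11.15, pandas 2.3.3, NumPy 2.4.6, SciPy 1.17.1 and matplotlib 3.10.9 were used.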

Additional observations from a re-analysis of the deposited data

How the results depend on the processing

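No paired analysis was possible because the values used are means over the 3 libraries of each genotype, so the replicate numbers that the genotypes share could not enter a fit, and leaving out single libraries could not be done either. Of the 34 members, 2 were lower by more than 1.5-fold, and with the threshold at 0.32 or at 1 on the log2 scale the number was 7 or 0. Scaled to the median gene, the median log2 ratio of the members was -0.18 in place of -0.16, a move of all genes by -0.025 on the log2 scale. Under each scaling and pseudocount 32 members were below 0 and 2 above. The 46 values compared are gene ratios, held to their counting interval, numbers of members, held to 1.5 times, and 20 medians of groups and lists, held to 0.024 on the log2 scale, the median half-width of the member intervals. All 46 stayed within these bounds with a pseudocount of 0.1, with the upper quartile and with the total without the 10 most abundant genes, and so did 14 with the median gene, while the other 32, the 20 medians and 12 gene ratios, shifted past their bounds, the medians only just. The mural cell median lay so near 0 that it changed sign with the upper quartile as well (-0.0013 in place of 0.0050). The intervals that included 0 went from 6 to 3 with the median gene. The lowest mean count of a member was 64.2, so count minimums of 1 and 50 left out none and could change no value of the members. After the data were seen, scaling to the median of genes that averaged 1000 counts or more was added, which left 44 of the 46 within these bounds. Also added was leaving out 5 members that share over 5% of their windows with another gene (*Actn1*, *Pln*, *Smtn*, *Tagln* and *Vcl*). None of these was past 0.32 on the log2 scale, so the numbers past a fold could not change, nor could the number below 0 leave its bound. The median log2 ratio was then -0.158. With the longest transcript as length, all 6 highest levels per kb moved. Depth limits *Sgcd*, *Ryr2*, *Oxtr*, *Pln* and *Ldb3* most, and no value carries a replicate error.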
